A study of Mus musculus with 12 samples.

Results

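The sperm ADAM genes described here are Adam1a, Adam1b, Adam2, Adam3, Adam4, Adam5, Adam18, Adam24, Adam30 and Adam32, the fertilin and cyritestin group. They were chosen by name, and all 10 were found among the 24516 gene symbols of the transcript table, with 22 of its 71967 transcripts. Transcripts that match, lie within, share a splice junction with or overlap a reference transcript of the gene (GffCompare classes =, c, j and o) were summed per gene. Testes came from wild-type male mice of the inbred strain C57BL/6 aged 3, 6, 12 or 18 months (3M, 6M, 12M and 18M), and age is the one difference between the groups that the labels give. Each age had 3 mice with 1 library each, and litters or cages are not given in the sources used here. Libraries were made from rRNA-depleted total RNA and carry no strand information.

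ADAM proteins (a disintegrin and metalloprotease) are membrane-anchored proteins with a metalloprotease-like and a disintegrin domain. The members of this group are made in male germ cells and reach the sperm surface or the endoplasmic reticulum of the developing sperm. ADAM1B pairs with ADAM2 as fertilin on sperm, while ADAM1A pairs with ADAM2 in the endoplasmic reticulum of germ cells. Loss of ADAM1A or ADAM2 removes ADAM3 (cyritestin) from mature sperm, and sperm without ADAM3 fail to pass the uterotubal junction and to bind the zona pellucida.

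The members differ in whether their metalloprotease domain has the residues that hold zinc, and the coding bases of that site are shown because they separate the members that could be proteases from the others. Each stretch is 33 bases (11 codons) of the coding exon, 5′ to 3′ on the strand of the gene, from GENCODE vM21 transcripts on GRCm38 (the same build as mm10). The capitals mark the 4 codons of the consensus that stand for its catalytic glutamate and its zinc-binding histidines.
Adam1a, chr5:121520089-121520121, minus strand: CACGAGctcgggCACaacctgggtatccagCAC
Adam1b, chr5:121501937-121501969, minus strand: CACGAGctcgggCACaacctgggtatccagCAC
Adam24, chr8:40680518-40680550, plus strand: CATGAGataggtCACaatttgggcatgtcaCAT
Adam30, chr3:98161861-98161893, plus strand: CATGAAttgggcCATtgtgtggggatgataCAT
Adam4, chr12:81420763-81420795, minus strand: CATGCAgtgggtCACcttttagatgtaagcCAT
Adam2, chr14:66053841-66053873, minus strand: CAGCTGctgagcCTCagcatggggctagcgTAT
Adam3, chr8:24707418-24707450, minus strand: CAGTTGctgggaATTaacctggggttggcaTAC
Adam5, chr8:24806449-24806481, minus strand: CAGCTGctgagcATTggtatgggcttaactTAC
Adam18, chr8:24647848-24647880, minus strand: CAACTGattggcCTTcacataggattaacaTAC
Adam32, chr8:24901501-24901533, minus strand: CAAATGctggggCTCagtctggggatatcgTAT

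The 4 codons were all present in Adam1a, Adam1b, Adam24 (testase 1) and Adam30, and the reading frames of these 4 genes held the whole consensus. In the other genes the stretch was placed by aligning the translated frames with those 4, and all 4 alignments gave the same place. Adam4 kept 3 of the 4 codons. Adam2, Adam3, Adam5, Adam18 and Adam32 kept none of them. Adam1a and Adam1b had the same 33 bases here, and their coding sequences were identical at 77.6% of 2256 aligned bases, against 53.7% for the next pair, Adam3 and Adam18. The leading transcripts of Adam1a, Adam1b, Adam4 and Adam30 have a single exon, while that of Adam2 has 21 exons.

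The genes of the group also share position. Adam18, Adam3, Adam5 and Adam32 follow each other on the minus strand of chromosome 8 without another protein-coding gene between them, and their coding sequences were identical at 50.6% to 53.7% of aligned bases. Ido1 and Ido2, the nearest protein-coding genes on the Adam18 side, were at 0.0608 ± 0.0553 and 0.0158 ± 0.0144 FPKM (SD, n = 12), where FPKM is the fragment count scaled to transcript length and to the mapped fragments of the library. Adam9, a widely expressed ADAM gene that borders Adam32, was at 4.13 ± 0.379 FPKM. Adam1a and Adam1b lie on the minus strand of chromosome 5. In GENCODE vM21, Gm42878 overlaps Adam1a on the same strand, where strand information would not separate their reads. Gm45528 overlaps Adam3 on the opposite strand, and libraries without strand information cannot separate reads of that pair.

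Most members were among the strongly expressed genes of the testis. Adam3 had the highest level, 421 ± 20.2 FPKM over the 12 mice (mean ± SD), and stood at place 84 of all genes, of which 13383 had a mean of 1 FPKM or more. Adam5, which has been found in complexes with ADAM2 and ADAM3, followed with 389 ± 16 FPKM at place 101. Adam32 was at 257 ± 8.33 FPKM and Adam2, the fertilin beta subunit, at 128 ± 7.61 FPKM. Adam1a was at 79.4 ± 4.02 FPKM and Adam1b, the fertilin alpha subunit of sperm, at 58.6 ± 5.82 FPKM. Adam18 was at 50.1 ± 2.10 FPKM and Adam24 at 42.1 ± 2.93 FPKM. Adam4 (24.6 ± 2.01 FPKM) and Adam30 (23.8 ± 0.934 FPKM) had the lowest levels, 17.2-fold and 17.7-fold below Adam3. The neighbors on chromosome 8 therefore differed from each other by up to 8.40-fold, the distance of Adam18 from Adam3.

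Most neighbors in the order of levels kept their places in every mouse. Neighbors in the order were compared within mice on log2(FPKM + 0.001) with a two-sided exact sign-flip permutation test, and p-values were adjusted over the 9 comparisons. The order came from the mean FPKM of these same 12 mice, so the pairs and their directions were not set beforehand. The p-values describe how steady a difference was across these mice and are no independent test of the order. Of the 9, 7 had the higher gene above the lower one in 12 of 12 mice (adjusted exact p = 0.000628, from a raw p of 0.000488 that is the smallest 12 mice can give). The smallest of these differences was that of Adam3 over Adam5, 1.08-fold. Adam1b was above Adam18 in 10 of 12 mice, by 1.16-fold (adjusted exact p = 0.0022). Adam4 and Adam30 did not differ beyond the spread between mice (9 of 12 mice, exact p = 0.279). With transcripts of class = alone, Adam5 stood above Adam3, and the other places were kept.

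**Figure D1:**
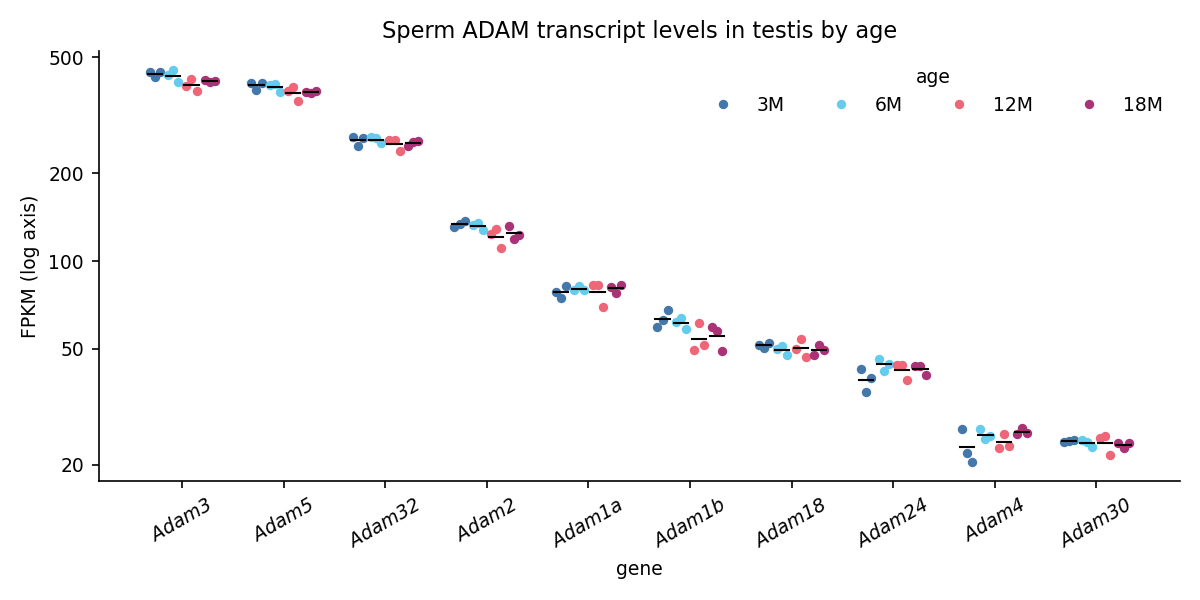
FPKM of the 10 sperm ADAM genes in the testis, on a log axis, in order of mean level. Each point is 1 mouse, colored by age, and each line is the mean of the 3 mice of an age. Adam3, Adam5 and Adam32 lie at 239 FPKM or more in every mouse, and the ages of each gene lie close together.

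The levels varied little between mice. The coefficient of variation over all 12 mice lay between 3.25% (Adam32) and 9.94% (Adam1b) with a median of 4.93%, against a median of 6.51% in the 3160 genes within the same range of mean FPKM. Of those genes, 30.3% varied less than the median member. The members together took 0.414% to 0.472% of the reads in each library. This share was 0.463% ± 0.0124 at 3M, 0.462% ± 0.0135 at 6M and 0.439% ± 0.0232 at 12M (SD, n = 3 each). At 18M it was 0.447% ± 0.00105 (SD, n = 3). The share was higher in every 3M mouse than in any 18M mouse (exact permutation p = 0.1, the smallest that 3 mice against 3 can give). The lowest 3M mouse was at 0.449% and the highest 18M mouse at 0.447%. Of all single genes, 20.4% had groups apart in normalized counts in this comparison, and no such figure was computed for shares of reads. In whole testis, fewer cells of a type and less RNA per cell cannot be told apart.

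The libraries held between 50924104 and 71803379 estimated reads, and each member had at least 3288 in every library. The third 12M library stood apart from the other 12M libraries, with a chi-square per gene of 45.1 and 55.7 against them, while other pairs of the same age had 23.1 to 33.7. It also held the lowest FPKM of 7 of the 10 members. It takes no part in the comparison of 3M with 18M, and without it 0 of 10 members were called in each comparison that includes 12M.

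None of the members passed the test for a change with age. With edgeR's quasi-likelihood test and Benjamini-Hochberg adjustment over all genes, 0 of 10 members were called at an adjusted p of 0.05 or less between 3M and 18M, where the background was 0.0662% of 18130 genes. At an unadjusted p of 0.05 or less the count was also 0 of 10, against 13.5% of all genes. The unadjusted count was 1 with library size alone, with class = alone or with all 12 libraries in the fit, and 3 without the first 3M mouse, while the count of calls stayed at 0. DESeq2 also called 0 of 10 (background 1.41%), with Adam4 alone at an unadjusted p of 0.05 or less. The share of all genes at an unadjusted DESeq2 p was not computed for any comparison. The estimate was lower at 18M for 7 members and higher for 3, with a median log2 change of −0.03 against −0.0019 over all genes. The 95% confidence intervals lay between a fall of 22.6% and a rise of 33.6% for every member, and a missed threshold within these bounds does not show that the ages were equal.

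The steps between ages gave the same count. Between 3M and 6M (background 0.0497%), 6M and 12M (0.0606%) and 12M and 18M (0.0275%), 0 of 10 members were called. At an unadjusted p of 0.05 or less the count was again 0 of 10 in each, against 3.96%, 8.72% and 3.52% of all genes. The test for any age difference over all 12 libraries (background 0.0917%) also called 0 of 10, with 0 at an unadjusted p of 0.05 or less, against 10.3% of all genes. The slope on age in months (background 0.41%) called 0 of 10, with 1 member, Adam1b, at an unadjusted p of 0.05 or less, against 17.5% of all genes. DESeq2 called 0 members in each of these (backgrounds of 0.364%, 0.689% and 0.209% for the steps, 2.13% for any difference and 3.11% for the slope), with Adam1b alone at an unadjusted p of 0.05 or less, in the slope. The steps of single members ranged from −9.86% (Adam1b from 6M to 12M, adjusted p = 0.653) to 12.2% (Adam24 from 3M to 6M, adjusted p = 0.991). The first is a log2 change of −0.15, which was −0.10 without the first 12M mouse and −0.26 without the second. The other is a log2 change of 0.17, which was 0.09 without the second 3M mouse.

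**Figure D2:**
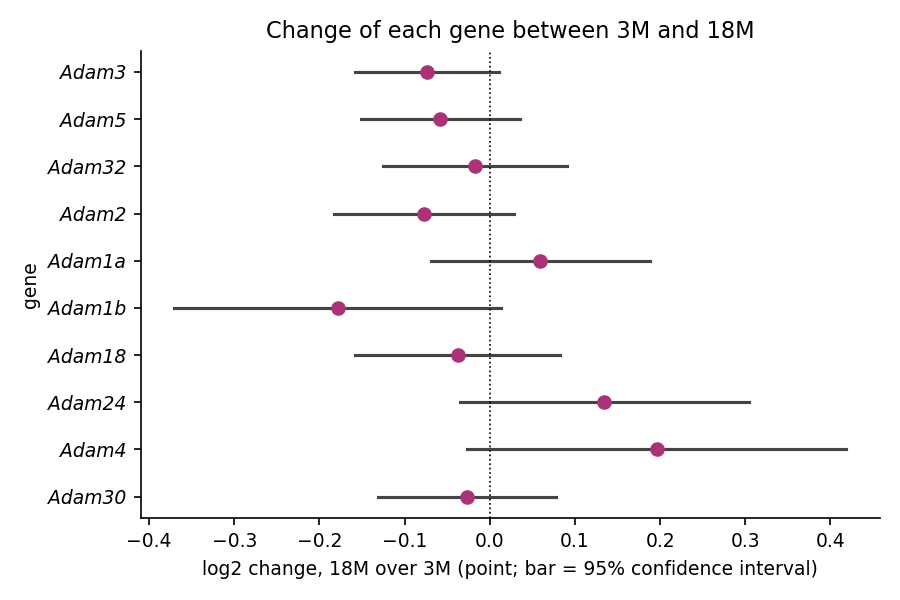
Log2 change of each gene from 3M to 18M (point) with its 95% confidence interval (bar), from edgeR with 3 mice per age. Every interval includes 0. Adam1b has the lowest estimate, −0.18, and Adam4 the highest, 0.20.

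Of the fertilin genes, Adam1b had the largest estimate. Its FPKM was 59.3, 62.9 and 68.0 in the 3M mice, 61.6, 63.9 and 58.4 at 6M and 49.6, 61.4 and 51.4 at 12M. The 18M mice had 59.5, 57.6 and 49.2 FPKM. The lowest mice were the first and the third of 12M and the third of 18M, and the 3M and 18M mice overlapped. The log2 change from 3M to 18M was −0.18 ± 0.08 (SE), with an adjusted p of 0.387 (edgeR). The slope was −0.013 ± 0.0056 log2 units per month (unadjusted p = 0.0354, adjusted p = 0.256, edgeR).

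Adam2, which pairs with both, was at 130, 134 and 137 FPKM at 3M, 133, 135 and 127 at 6M and 124, 128 and 111 at 12M. The 18M mice, at 132, 119 and 123 FPKM, overlapped those of 3M. The log2 change from 3M to 18M was −0.08 ± 0.05 (SE, adjusted p = 0.479, edgeR). Adam1a was at 78.3, 74.5 and 81.9 FPKM at 3M, 79.6, 82.1 and 79.3 at 6M and 82.8, 82.4 and 69.5 at 12M. At 18M it was at 81.6, 77.4 and 82.8 FPKM. Its ages overlapped throughout, and its log2 change was 0.06 ± 0.05 (SE, adjusted p = 0.662, edgeR).

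Adam3, whose protein is missing from mature sperm without ADAM1A or ADAM2, was lower in every 18M mouse than in any 3M mouse. Its FPKM was 446, 428 and 444 at 3M, 433, 451 and 412 at 6M and 399, 422 and 382 at 12M. The 18M mice had 416, 410 and 413 FPKM. On the scale of the test (CPM, counts scaled to the normalized library size), Adam3 alone of the 10 members had groups apart in this comparison, 1 of 10, against 20.4% of all genes in either direction and 10.7% lower at 18M, so the count is no more than the background. The log2 change was −0.07 ± 0.04 (SE, adjusted p = 0.412, edgeR). Adam5 was at 409, 386 and 407 FPKM at 3M, 401, 404 and 381 at 6M and 382, 396 and 353 at 12M. At 18M it was at 381, 378 and 383 FPKM, with a log2 change from 3M of −0.06 ± 0.04 (SE, adjusted p = 0.542, edgeR). Its 3M and 18M mice did not overlap in FPKM, while they overlapped in CPM.

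Among the members with the zinc site or most of it, Adam4, Adam24 and Adam1a had higher estimates at 18M, and Adam1b and Adam30 had lower ones. Adam4 was at 26.5, 21.9 and 20.5 FPKM at 3M, 26.5, 24.5 and 25.2 at 6M and 22.9, 25.5 and 23.2 at 12M. The 18M mice had 25.6, 26.9 and 25.7 FPKM, and the first 3M mouse lay within their range. The log2 change was 0.20 ± 0.10 (SE, adjusted p = 0.405, edgeR). Adam24, a sperm surface protease, was at 42.5, 35.6 and 39.7 FPKM at 3M, 46.2, 42.1 and 44.3 at 6M and 44.2, 44.0 and 39.1 at 12M. At 18M it was at 43.6, 43.7 and 40.6 FPKM, within which 1 of the 3M mice fell. Its log2 change from 3M to 18M was 0.13 ± 0.07 (SE, adjusted p = 0.443, edgeR), and 0.07 without the second 3M mouse. Adam30, Adam18 and Adam32 had the estimates nearest to 0. Adam30 was at 23.9, 24.1 and 24.4 FPKM at 3M and at 23.7, 22.8 and 23.7 at 18M, apart in FPKM by less than 1 unit and overlapping in CPM (log2 change −0.03 ± 0.04 SE, adjusted p = 0.82, edgeR). Adam18 (−0.04 ± 0.05 SE, adjusted p = 0.774, edgeR) and Adam32 (−0.02 ± 0.05 SE, adjusted p = 0.896, edgeR) overlapped on both scales. Adam18 was at 51.4, 50.4 and 52.4 FPKM at 3M and at 47.6, 51.3 and 49.7 at 18M, and Adam32 at 265, 248 and 265 FPKM at 3M and at 248, 256 and 258 at 18M. At 6M and 12M the 6 mice ranged from 46.7 to 53.9 FPKM for Adam18 and from 239 to 266 FPKM for Adam32, and the third 12M mouse had the lowest level of both genes.

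The balance within some pairs of members was compared within mice. The FPKM of Adam2 was 2.12 ± 0.0888 times that of Adam1b at 3M and 2.26 ± 0.222 times at 18M (SD, n = 3), with overlapping mice (exact permutation p = 0.4). Adam2 was at 0.305 ± 0.011 of the FPKM of Adam3 at 3M and at 0.301 ± 0.0136 at 18M (exact permutation p = 0.9), and over all 12 mice this ratio stayed between 0.29 and 0.316. The ratio of Adam1b to Adam1a was 0.758, 0.843 and 0.83 at 3M and 0.73, 0.744 and 0.594 at 18M. Every 3M mouse was above every 18M mouse, with a log2 difference of −0.24 (18M minus 3M) and an exact permutation p of 0.1, the smallest possible with 3 mice per age. Of all single genes, 20.4% had groups apart in CPM in this comparison, and no such share was computed for ratios.

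**Figure D3:**
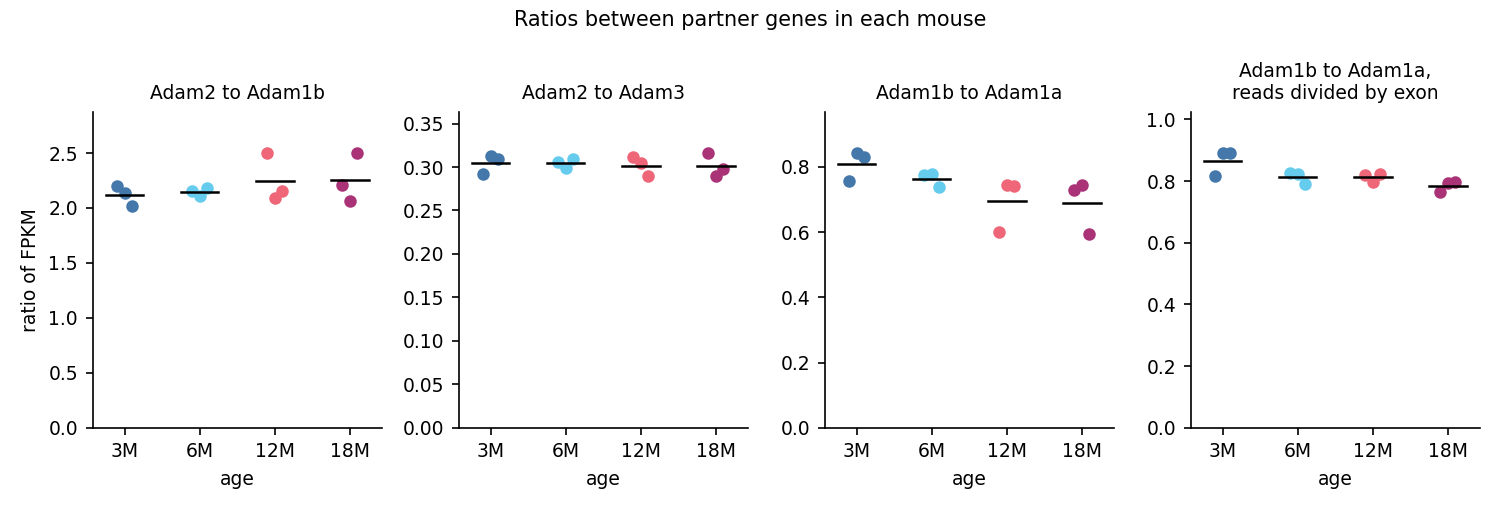
Ratios of FPKM between pairs of members in each mouse (points) with the mean of each age (lines), axes starting at 0. Adam2 to Adam3 stays near 0.3 at every age. In the ratio of Adam1b to Adam1a, the lowest mice at 12M (0.6) and 18M (0.594) rise to 0.82 and 0.798 when the reads of transcripts that span both genes are divided by exon.

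Transcripts that span both genes enter this ratio. MSTRG.16079.1 and MSTRG.16079.2 start at the first base of Adam1a, skip 18086 and 18103 bases and end in an exon that covers most of Adam1b, and the table gives them to Adam1a. The bases around each join are shown because they hold the ends of the assembled introns. They lie in the coding sequences of Adam1a and Adam1b, on the minus strand, and the capitals mark the first or last 2 bases of the intron.
MSTRG.16079.1 in Adam1a, chr5:121520510-121520539: gtggtcacacaccaaGTatgtggagatgtt
MSTRG.16079.1 in Adam1b, chr5:121502424-121502453: ccctggggacaccAGccatccaccaaggag
MSTRG.16079.2 in Adam1a, chr5:121520907-121520936: tgctattgatgcaagGCcaaaagcagctgc
MSTRG.16079.2 in Adam1b, chr5:121502804-121502833: agactgccaggcaAGggggggaaagaccct

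MSTRG.16079.1 has the usual GT and AG ends of an intron, and MSTRG.16079.2 has GC and AG. MSTRG.16079.1 was found in every library with 396 to 845 estimated reads. MSTRG.16079.2 was at 0 in 10 libraries and had 1966 reads in the first 12M library and 2228 in the third 18M library, where 77.7% and 78.5% of its coverage lay on the exon in Adam1b. These are the libraries with the lowest Adam1b levels. With the reads of both transcripts divided by exon, Adam1b was at 62.4, 65.2 and 71.2 FPKM at 3M and at 61.5, 60.2 and 59.7 at 18M, which no longer overlapped. Groups were apart in CPM for 20.4% of all genes in this comparison, and no such share was computed for FPKM. The log2 change of Adam1b from 3M to 18M became −0.12 (adjusted p = 0.405, edgeR) and its slope −0.0078 per month (adjusted p = 0.322, edgeR), with 0 members at an unadjusted p of 0.05 or less in either.

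The divided ratio of Adam1b to Adam1a was 0.816, 0.892 and 0.89 at 3M, 0.825, 0.823 and 0.789 at 6M and 0.82, 0.798 and 0.822 at 12M. At 18M it was 0.765, 0.792 and 0.798. The mice of 3M and 18M still did not overlap, and the log2 difference was −0.14 (exact permutation p = 0.1). How often such ratios lie apart was not computed. This division was chosen after the transcripts were seen, and whether reads of these paralogs were shared between them was not tested.

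**Figure D4:**
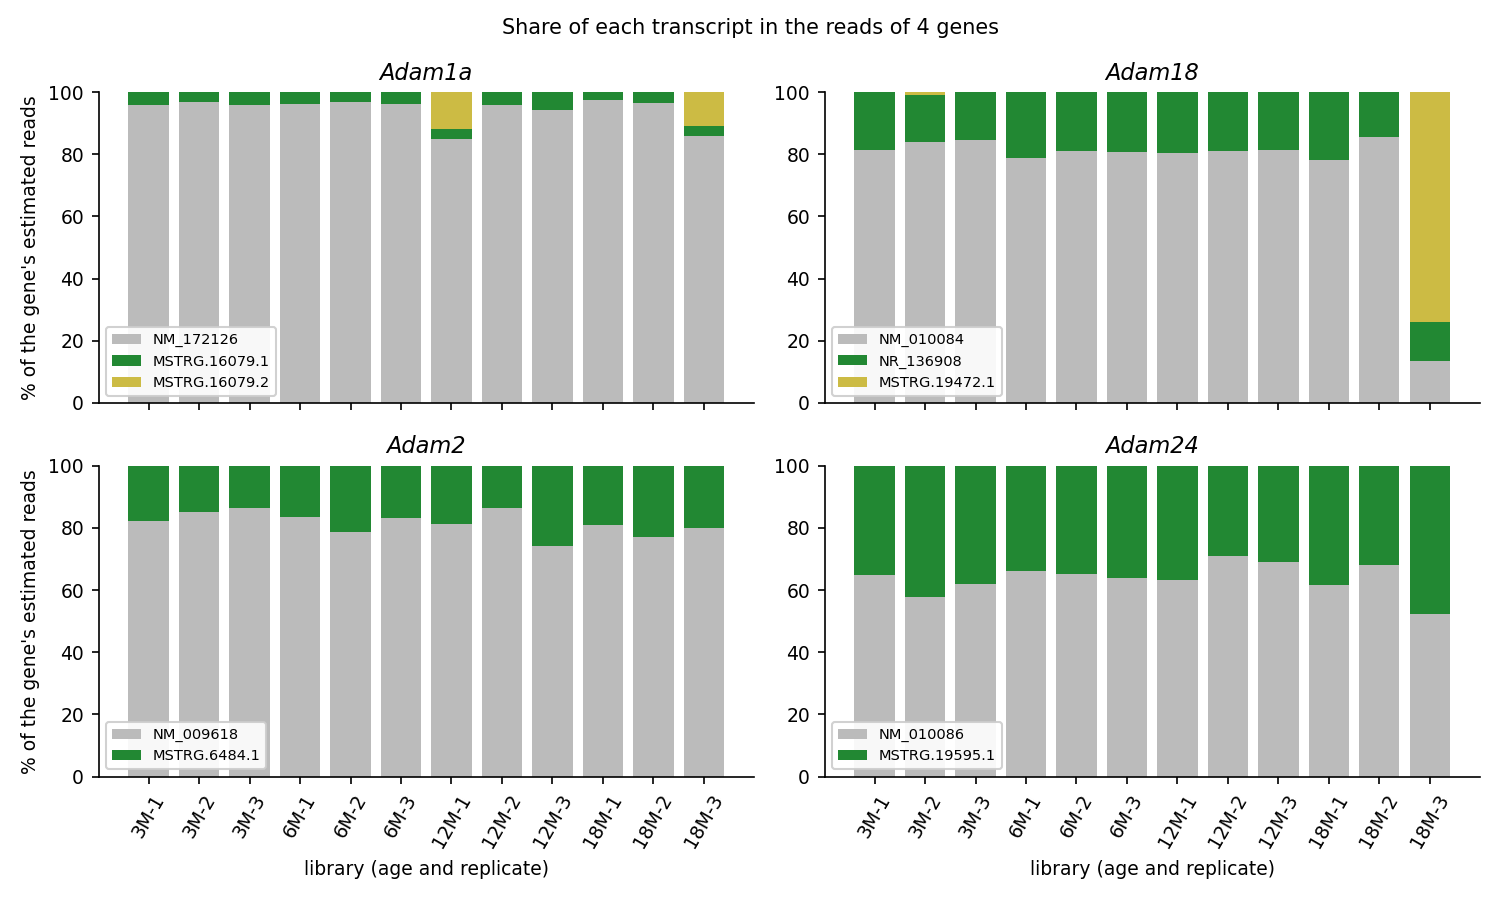
Share of each transcript in the estimated reads of Adam1a, Adam18, Adam2 and Adam24 in each of the 12 libraries (stacked bars, 100% is all reads of the gene). MSTRG.16079.2 of Adam1a appears in the first 12M and the third 18M library, and MSTRG.19472.1 takes 74.0% of Adam18 in the third 18M library.

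Adam18 had another library-specific transcript. MSTRG.19472.1 was at 0 reads in 10 libraries, had 64 in the second 3M library and 6682 in the third 18M library. It adds an exon of 10 bases at chr8:24591954-24591963, beyond the end of Adam18 and within Ido1. The reference transcript NM_010084 (74.4% of the reads of Adam18 overall) fell to 1229 reads in that library, its lowest, while the summed FPKM of Adam18 there was 49.7, within the 46.7 to 53.9 of all mice. Its transcripts were thus unequal between libraries, while the sum over the gene was not.

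In Adam2, MSTRG.6484.1 held 18.4% of the reads, between 13.7% and 25.8% in single libraries. It joins a pair of exons into 1 of 754 bases (chr14:66068500-66069253) by keeping the 508-base intron between them. The coverage of that exon was 53.1 to 85.3 reads per base, below the median of the transcript's other exons (107 to 208) in each library. Its log2 change from 3M to 18M was 0.33 ± 0.11 (SE) and that of the reference transcript NM_009618 was −0.19 ± 0.07 (SE). Both missed the adjusted threshold (adjusted p = 0.9 and 0.912, edgeR over 54472 transcripts, background 0.108%).

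Over all members, 20 of the 22 transcripts passed the filter on low counts, which left out MSTRG.16079.2 and MSTRG.19472.1. Between 3M and 18M 0 of the 20 were called, and 4 had an unadjusted p of 0.05 or less, against 5.4% of all transcripts. The unadjusted count was 0 without the third 3M or the second 18M mouse and 7 with DESeq2. The 5.4% is not the background of these counts, because no such share of all transcripts was computed for DESeq2 or with a mouse left out. The 4 found by edgeR with no mouse left out were both transcripts of Adam2, NM_009619 of Adam3 and NM_007401 of Adam5. NM_009619 held 75.7% of the reads of Adam3 (log2 change −0.09 ± 0.03 SE, adjusted p = 0.904, edgeR) and NM_007401 90.8% of those of Adam5 (−0.10 ± 0.04 SE, adjusted p = 0.92, edgeR). For the slope, 0 of 20 were called (background 0.0103%) and 2 had an unadjusted p of 0.05 or less, against 7.15% of all transcripts. DESeq2 called 0 in both comparisons (backgrounds of 3.16% and 1.28%). Adam24 split its reads between NM_010086 (63.5%) and MSTRG.19595.1 (36.5%), which has an additional exon of 197 bases.

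The other ADAM genes were at lower levels than most members. The 13 listed ADAM genes of other tissues summed to 29.8 to 31.5 FPKM at 3M and 25.9 to 31.8 FPKM at 18M. Adam15 led them at 10.2 ± 1.74 FPKM (SD, n = 12). Of the 13, 7 had a mean of 1 FPKM or more and 1 was at 0 in all libraries. The 11 other ADAM genes of the reproductive tract summed to 171 to 205 FPKM at 3M and 198 to 210 FPKM at 18M. Among these were Adam6a (38.5 ± 3.96 FPKM) and Adam6b (28.7 ± 2.05 FPKM), whose reads may be shared because they are close copies, and Adam20 (32.1 ± 2.86 FPKM). Of the 11 and 10 genes of these lists that passed the filter on low counts, edgeR called 0 between 3M and 18M, and the median log2 changes were −0.13 and 0.11. At an unadjusted p of 0.05 or less were Adam8 (higher), Adam12 and Adam23 (lower) of the first list and Adam29 (higher) of the second. DESeq2 called 0 of either list in this comparison.

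The factors that fold, process or carry sperm ADAM proteins were at 2019 to 2265 FPKM in sum at 3M and 2168 to 2233 FPKM at 18M. The highest were Cmtm2a (564 ± 17.4 FPKM), Lypd4 (362 ± 12.1 FPKM) and Cmtm2b (327 ± 21.4 FPKM), and the list also holds chaperones of the endoplasmic reticulum. Of its 14 genes, 0 were called by edgeR, 3 had an unadjusted p of 0.05 or less (background 13.5%), and the median log2 change was 0.09. The 3 were Pdilt (0.19 ± 0.06 SE, adjusted p = 0.297) and Pmis2 (0.16 ± 0.07 SE, adjusted p = 0.353), with higher estimates at 18M, and Clgn (−0.10 ± 0.04 SE, adjusted p = 0.33), with a lower one. The summed FPKM of Clgn was 92.2 ± 24.8 at 3M and 60.5 ± 2.56 at 18M (SD, n = 3), a wider gap than in its counts. For the slope, 0 were called and 4 (Calr3, Pdilt, Pmis2 and Lypd4) had an unadjusted p of 0.05 or less, all higher with age (background 17.5%). DESeq2 called 0 in both.

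Markers of the cells that make these transcripts were set beside them. The 6 round spermatid markers summed to 635 to 745 FPKM at 3M and 798 to 812 FPKM at 18M, without overlap. Their median log2 change was 0.24, with 0 called by edgeR and 4 (Acrv1, Spaca1, Tssk1 and Izumo1) at an unadjusted p of 0.05 or less, all higher (background 6.28% higher). DESeq2 called 2 of the 6 between 3M and 18M and 3 for the slope, where edgeR called 0, against 1.41% and 3.11% of all genes called by DESeq2. The 10 sperm ADAM genes summed to 1466, 1532 and 1540 FPKM at 3M and to 1444, 1449 and 1458 FPKM at 18M, also without overlap and in the other direction. Of all single genes, 20.4% had groups apart in CPM in this comparison, and no such share was computed for sums or for FPKM. Markers of elongating spermatids summed to 23809 to 26249 FPKM at 3M and 24387 to 29071 FPKM at 18M, and the third 12M library had the highest sum, 32889. Spermatocyte markers ranged over 398 to 421 FPKM at 3M and 391 to 404 FPKM at 18M, with a median log2 change of −0.01.

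**Figure D5:**
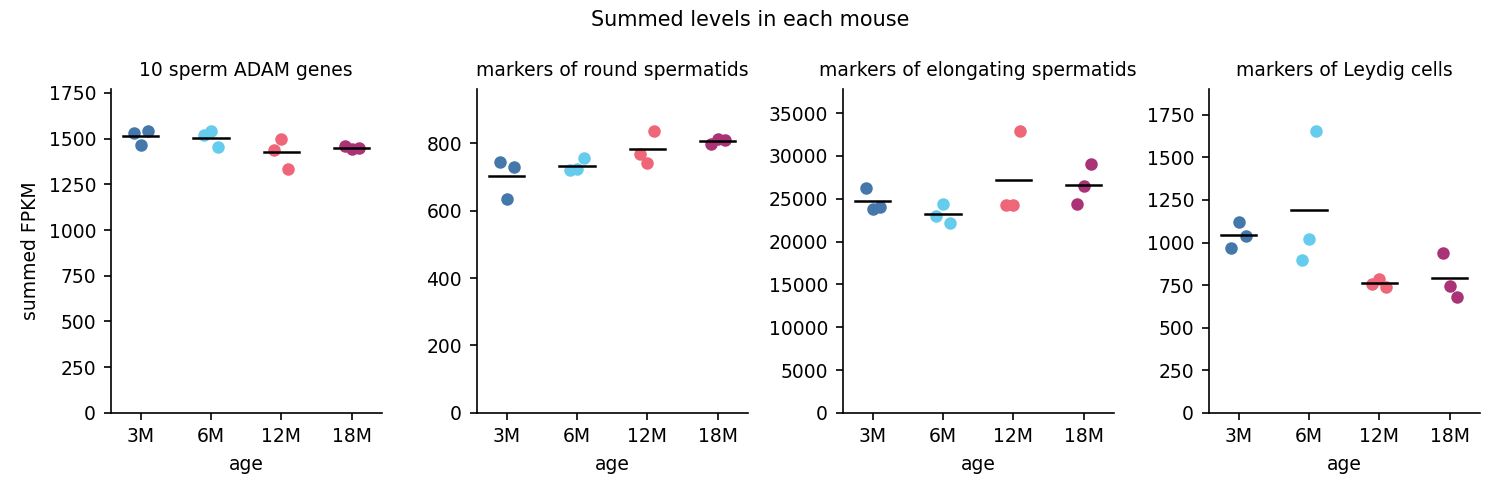
Summed FPKM of the 10 sperm ADAM genes and of the markers of round spermatids, elongating spermatids and Leydig cells in each mouse (points), with the mean of each age (lines), axes starting at 0. The ADAM sum at 18M (1444 to 1458) lies below that at 3M (1466 to 1540), and the round spermatid sum at 18M (798 to 812) lies above that at 3M (635 to 745). How often such sums lie apart was not computed.

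Among the other cells of the testis, most Leydig cell markers were lower at 18M. The 6 Leydig cell markers, led by Insl3 (841 ± 239 FPKM), summed to 967 to 1118 FPKM at 3M and 681 to 941 FPKM at 18M, with a median log2 change of −1.04. Cyp17a1, an enzyme of androgen synthesis, was called (log2 change −1.43 ± 0.15 SE, adjusted p = 0.0386, edgeR), and 5 of 6 had an unadjusted p of 0.05 or less, all lower (background 7.25% lower). Hsd3b1 had a higher mean FPKM at 18M (21.2 ± 6.61) than at 3M (18.0 ± 1.93, SD, n = 3 each). For the slope, Cyp17a1, Cyp11a1 and Lhcgr were called, all lower. DESeq2 called 3 of 6 between 3M and 18M and 4 of 6 for the slope, against the same shares of all genes. Sertoli cell markers summed to 75.6 to 102 FPKM at 3M and 85.8 to 109 FPKM at 18M, spermatogonial markers to 40.1 to 45.3 and 38.8 to 45.6, peritubular markers to 22.4 to 25.8 and 19.1 to 24.1, and macrophage markers to 4.27 to 4.94 and 3.29 to 4.73. None of the genes in these 4 lists, nor of the spermatocyte and elongating spermatid lists, was called by edgeR or DESeq2 between 3M and 18M, with 1 spermatogonial marker (Sall4) and 1 elongating spermatid marker (Odf1) at an unadjusted edgeR p of 0.05 or less and 2 markers in these lists at an unadjusted DESeq2 p of 0.05 or less. The 6 epididymis markers summed to at most 5.38 FPKM in any library, and 2 of them were at 0 in all libraries. The part of these cell types in the values of the ADAM genes was not tested.

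The pattern over the 12 mice was similar among several members, as a description without a test. Pearson's r of log2(CPM + 1) over the 12 libraries had a median of 0.489 over the 45 pairs of members, against −0.00039 over all pairs of the 9874 genes with a mean of 10 CPM or more. Of the member pairs, 22 had r over 0.5, against 11.6% of all pairs. The closest pair was Adam3 and Adam5 (r = 0.931), followed by Adam5 and Adam32 (0.881) and Adam2 and Adam3 (0.859), and the most opposed was Adam1b and Adam4 (−0.243). The genes most like Adam2 were Hadha (0.957), Psmd2 (0.953), 2610020H08Rik (0.946), Tsga10 (0.94) and Dhx30 (0.94). Those most like Adam3 were Ube3a (0.937), Ctnnd1 (0.933), Adam5, Fam98a (0.912) and Ccdc38 (0.907). All of these values share the same 12 libraries and their composition. They include the third 12M library, which held the lowest FPKM of 7 of the 10 members, and r without it was not computed. The 9874 genes were not limited to those of germ cells.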

How the data were processed

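Total RNA of 12 testes (4 ages, 3 mice each, grouped by their labels) was sequenced by the authors as paired ends, without strand information. For alignment to mm10 the authors used HISAT2, and for assembly, merging and quantification StringTie 1.3.3b, with GffCompare class codes in the deposited table. Its estimated counts were derived by the authors from the mean coverage of each transcript and written as whole numbers. The deposited FPKM values come from the same StringTie runs and were not normalized further across libraries. Exon coverage was read from the authors' assemblies.

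Estimated counts and FPKM were summed per gene over classes =, c, j and o. The quasi-likelihood F-test of edgeR 4.0.16 (R 4.3.3) was applied to the counts after filterByExpr and TMM, with p-values adjusted by Benjamini-Hochberg over every gene or transcript in the fit. Fits used the 6 libraries of a pair of ages, or all 12 for the slope on age and the test of any difference. Calls needed an adjusted p of 0.05 or less. The p-values cover the spread between these mice. DESeq2 1.42.0 was the alternative test, and the script was tested on simulated data. Ratios and neighbors in the order of levels were tested on log2(FPKM + 0.001) with two-sided exact permutation tests in Python 3.11.15 (numpy 2.4.6, pandas 2.3.3). Other normalizations, filters, class codes, a block by mouse number and leaving out each library were tried. Genes named beside the members were the 3 with the highest mean FPKM in a list, the 5 most like Adam2 and Adam3, and those called. Transcripts under 10% of their gene's reads and genes named for an unadjusted p were chosen after their values were seen. The members and lists were chosen with earlier results of these data known.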

Additional observations from a re-analysis of the deposited data

Results flagged for a closer look

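Transcripts on the opposite strand of Adam3 lie outside the gene sums, and both had reads in all 12 libraries. MSTRG.19474.2 had a mean of 1058 estimated reads (723 to 1367), or 5.66 ± 0.683 FPKM (SD, n = 12), and lies at chr8:24681391-24684528 on the plus strand of mm10, within Adam3. MSTRG.19474.1 had a mean of 33.5 reads (18 to 53). Both carry a gap of 60 bases at chr8:24681501-24681560, while MSTRG.19473.1 on the strand of Adam3 carries a gap of 60 bases at chr8:24681425-24681484. The log2 change of MSTRG.19474.2 from 3M to 18M was −0.09 ± 0.14 (SE, adjusted p = 0.995, edgeR). The libraries carry no strand information, so reads of Adam3 and of these transcripts cannot be told apart.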

How the results depend on the processing

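The count of members called was 0 under every alternative run for the 6 comparisons (other normalizations, no filter, class = alone, all classes, all 12 libraries in the fit, DESeq2 and leaving out each library). Read at an unadjusted p, the count for the slope became 1, Adam1b, with 0 to 2 over the alternatives. It was 0 to 3 between 3M and 18M, 0 to 2 between 3M and 6M and 0 to 1 in the other comparisons. The calls for transcripts kept their side of the threshold under the alternatives run for them. So did the tests of neighbors in level, run again with log2(FPKM + 1) and without each library. Those tests were not run with class = alone, which put Adam5 above Adam3. With a block by replicate number, 0 members were called in each comparison, and the genes called fell from 12 to 7 between 3M and 18M, from 76 to 42 for the slope, from 11 to 0 between 6M and 12M and from 17 to 9 for any difference. The deviations of same-numbered mice had r of −0.06 to 0.166, with 1 of 18 pairs over 0.1, the third 12M and the third 18M mouse. Such values cannot show whether same-numbered mice shared a batch, litter or cage, which the labels do not give.

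Leaving out each library in turn moved the log2 change from 3M to 18M of Adam1b between −0.22 and −0.10, of Adam3 between −0.10 and −0.06 of Adam4 between 0.12 and 0.31 and of Adam24 between 0.07 and 0.20. It turned the direction of small changes, with ranges of −0.066 to 0.0012 for Adam18, −0.051 to 0.010 for Adam32, −0.0024 to 0.0011 per month for the slope of Adam18 and −0.0019 to 0.00014 for that of Adam30. The log2 difference of Adam2 to Adam3 ranged from −0.053 to 0.010, and the slope of Adam1a with class = alone was −1.3e-05. The log2 change of Adam18 from 12M to 18M was −0.016, and −0.44 with class = alone. Apart from the 2 steps given with their values above, 392 step values were computed under the alternatives. Of these, 45 changed sign, in 9 genes, and none changed its side of the threshold. The cause of these turns was not tested. With levels computed from the summed reads, gene length and library total instead of FPKM, the means were 86.0 for Adam1a, 141 for Adam2, 448 for Adam3, 53.4 for Adam18, 46.0 for Adam24, 25.4 for Adam30 and 273 for Adam32. With class = alone they were 108 FPKM for Adam2, 340 for Adam3, 47.0 for Adam18 and 27.5 for Adam24, since fewer transcripts were summed. With 3 mice per age, exact tests of ratios cannot go below p = 0.1, and the intervals of the members allow changes of the size given in the report.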
